A study of Mus musculus with 8 samples.

Results

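7 transcription factor genes of the mouse forelimb are described here across development: the Iroquois homeobox genes *Irx1*, *Irx2*, *Irx3* and *Irx5*, and the zinc finger genes *Zic1*, *Zic2* and *Zic5*. They are 7 of the 27998 mouse genes counted and were taken by name, with no threshold on a measured value, though earlier results of these data were known. RNA was counted as unique molecular identifiers (UMIs, 1 per captured transcript end) in single cells of 8 droplet libraries. 6 libraries held cells sorted for the tdTomato reporter: 1 for each of the embryonic stages E11.5, E12.5, E13.5 and E14.5, and 2 for E16.5. The E16.5 forelimb had been cut in a proximal piece (distal upper arm, elbow and proximal forearm) and a distal piece (distal forearm and hand plate). The other 2 libraries, whole 1 and whole 2, held E11.5 forelimb cells both with and without tdTomato. Every embryo was homozygous for *Hic1* CreERT2 and for the *Rosa26* LSL tdTomato reporter on a C57BL/6J background, and every dam received 7.5 mg of tamoxifen at E10, so no library lacks the modified *Hic1* alleles. The reporter marks cells that expressed *Hic1*, a transcriptional repressor gene of mesenchymal progenitors, when tamoxifen acted, together with their descendants. Blood, endothelial and other lineage-marked cells had been gated out. Forelimbs of several embryos were pooled in each library, so a single library is 1 sample whatever its number of cells, and only the E11.5 whole limb has a second library.

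Iroquois proteins are homeodomain factors of the TALE class that pattern the nervous system, heart, limb and skin, and their genes lie in 2 conserved clusters. Within a cluster, neighbouring members such as *Irx3* and *Irx5* are often active in the same cells. In the early limb bud *Irx3* and *Irx5* act in the proximal and anterior part, and *Irx1* and *Irx2* are known from the forming digits and joints. Zic proteins bind DNA through zinc fingers related to those of the Gli factors, and are best known from the neural tube, the neural crest, the somites and the limb bud. In the mouse assembly GRCm38.p6, *Irx1* lies at chr13:71958232-71963723 and *Irx2* at chr13:72624430-72634196, 660.7 kb apart. *Irx3* at chr8:91798511-91801654 and *Irx5* at chr8:92357796-92361456 are 556.1 kb apart, with the non-coding RNA gene *Crnde* only 1.68 kb from *Irx5*. *Zic5* at chr14:122459160-122465658 and *Zic2* at chr14:122475384-122480328 are separated by 9.73 kb. *Zic1* lies alone among the members at chr9:91358058-91365768, and its start overlaps that of *Zic4*.

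Promoter windows from RefSeq, 250 bases before to 50 bases after the annotated start in GRCm38.p6, were found for 4 of the 7 genes. They are shown because members of both families are compared below by where and when their RNA was found, and the start region is part of the sequence through which a gene is controlled. Each is written 5′ to 3′ along the gene's own strand, with capitals for matches on either strand to 4 motifs: the GC box GGGCGG, the TATA box TATAAA, the Iroquois site ACANNTGT and the core GGGTGGT that Gli and Zic proteins share.
Irx2: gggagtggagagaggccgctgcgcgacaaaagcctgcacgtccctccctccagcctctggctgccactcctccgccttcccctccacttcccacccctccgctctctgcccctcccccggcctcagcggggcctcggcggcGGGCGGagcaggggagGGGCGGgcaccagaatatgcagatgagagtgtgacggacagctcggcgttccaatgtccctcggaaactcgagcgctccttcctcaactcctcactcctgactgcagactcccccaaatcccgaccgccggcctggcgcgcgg
Irx3: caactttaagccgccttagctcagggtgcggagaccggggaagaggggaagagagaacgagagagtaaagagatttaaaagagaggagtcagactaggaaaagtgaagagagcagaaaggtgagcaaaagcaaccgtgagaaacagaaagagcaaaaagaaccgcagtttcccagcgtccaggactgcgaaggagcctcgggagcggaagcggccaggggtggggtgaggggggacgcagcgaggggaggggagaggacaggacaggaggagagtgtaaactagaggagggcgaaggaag
Zic1: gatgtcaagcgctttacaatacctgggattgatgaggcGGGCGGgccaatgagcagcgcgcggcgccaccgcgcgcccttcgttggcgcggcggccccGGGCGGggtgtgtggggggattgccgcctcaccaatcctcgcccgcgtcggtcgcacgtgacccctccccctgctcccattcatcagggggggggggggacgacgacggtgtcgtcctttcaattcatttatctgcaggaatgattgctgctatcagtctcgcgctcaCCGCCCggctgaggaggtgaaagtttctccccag
Zic5: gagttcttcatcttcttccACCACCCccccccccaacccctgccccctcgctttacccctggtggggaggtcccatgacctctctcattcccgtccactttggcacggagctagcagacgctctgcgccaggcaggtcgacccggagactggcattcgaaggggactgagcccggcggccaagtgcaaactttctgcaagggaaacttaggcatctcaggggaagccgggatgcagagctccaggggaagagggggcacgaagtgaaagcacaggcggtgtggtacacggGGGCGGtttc
The windows were *Irx2* at chr13:72628570-72628869 on the plus strand, which lies inside the outer bounds of the gene, *Irx3* at chr8:91801605-91801904 on the minus strand, *Zic1* at chr9:91365719-91366018 on the minus strand and *Zic5* at chr14:122465609-122465908 on the minus strand. *Zic1* held 3 GC boxes, *Irx2* held 2 and *Zic5* held 1, and *Irx3* held no match to any of the 4 motifs. *Zic5* held 1 match to the Gli and Zic core. Of 32851 promoter windows of the same length, 35.7% held a GC box, 13.6% the TATA box, 7.38% the Iroquois site and 4.61% the Gli and Zic core. Guanine and cytosine made up 69.0% of the *Irx2* window, 65.3% of *Zic1*, 62.7% of *Zic5* and 56.0% of *Irx3*, against a median of 52.7% over all windows. A match describes letters only and was not tested for binding.

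Of 57469 deposited barcodes, 53085 cells held 3000 or more UMIs and at most 10% mitochondrial UMIs, between 3165 and 11109 per library. Their median depth ran from 6788 UMIs in a cell at E13.5 to 18473 in the E16.5 proximal library, and the library kit changed from v2 to v3 between E13.5 and E14.5, so stage and kit cannot be told apart across that step. Any 2 libraries shared between 0 and 48 barcodes. In the E11.5 test of whole mesenchymal sums, *tdTomato* was 99.5-fold and *Hic1* 26.9-fold higher in the sorted library than in the whole limbs, as the labels say. Summed erythroid markers reached 109.6 CPM in the proximal and 75.7 CPM in the distal library of E16.5, against 0.160 to 4.68 CPM elsewhere, and their part in the E16.5 levels was not tested. Cells were clustered without the 7 members and clusters were named only from fixed marker genes, so the names below carry no information from Iroquois or Zic counts. Levels are given as CPM, the UMIs of a gene per 1000000 UMIs of all genes, summed over the cells named, with 95% intervals in brackets that cover counting error only. Except at E11.5, no comparison has replicates, and a ratio between libraries describes those libraries.

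*Irx1* and *Irx2* were close to absent from tdTomato+ cells of E11.5 and well detected by E14.5. Outside epithelial cells, *Irx1* stood at 0.286 CPM in the E11.5 library (9 UMIs in 3161 cells), 1.56 in that of E12.5, 8.61 in E13.5, 70.3 in E14.5, 49.9 in the proximal and 41.7 in the distal E16.5 library. Each library up to E14.5 exceeded the one before by more than counting error, with ratios of 5.45 [2.71 to 12.4], 5.52 [4.26 to 7.24] and 8.17 [7.38 to 9.06], and the last of these spans the change of kit. *Irx2* had the same order up to E14.5, with 0.159, 0.792, 3.06 and 17.5 CPM, and stood at 22.4 in the proximal and 21.1 CPM in the distal library of E16.5. From E11.5 to the proximal library of E16.5 the ratio was 174 [91.7 to 381] for *Irx1* and 141 [60.2 to 433] for *Irx2*, the latter resting on 5 UMIs at E11.5. Where 47.4% of 17056 genes with 20 or more UMIs differed by over 2-fold between those libraries, 6 of the 7 members did, and *Irx3* did not. Forelimbs before E16.5 were not cut in segments, so stage and segment cannot be told apart in this comparison. With every cell thinned to 3000 UMIs *Irx3* did pass 2-fold, at a log2 ratio of 1.19 against 0.29. *Irx2*, *Irx5*, *Zic1* and *Zic2* also moved by over 1.5-fold, to log2 ratios of 7.89, 2.98, 2.48 and −3.39, with the same direction. *Zic5* kept no proximal UMI when thinned, and its −5.53, with 3 UMIs set in place of 0, is an upper bound.

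*Irx3* and *Irx5* had a different order, with their lowest levels in the E12.5 library. *Irx3* stood at 8.33, 2.62, 3.31 and 16.8 CPM in the libraries of E11.5, E12.5, E13.5 and E14.5, and 10.2 and 19.5 CPM in the proximal and distal libraries of E16.5. The ratio of E12.5 over E11.5 was 0.315 [0.251 to 0.393], and the values of E12.5 and E13.5 did not differ beyond counting error (1.26 [0.982 to 1.62]). *Irx5* stood at 4.74, 3.01, 7.93 and 42.5 CPM from E11.5 to E14.5, then at 24.3 proximally and 52.2 distally. From E13.5 to E14.5 all 4 Iroquois genes had ratios between 5.07 for *Irx3* and 8.17 for *Irx1*, across the change of kit.

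Among the Zic genes, *Zic5* had the opposite order to *Irx1* and *Irx2* up to E14.5. *Zic2* was level over those libraries, and *Zic1* stayed near the detection limit. *Zic5* stood at 5.41 CPM in the E11.5 library, then at 4.41, 1.85 and 0.393 up to E14.5, and at 0.0402 proximally (8 UMIs in 10167 cells) and 0.631 distally at E16.5. It was 134-fold lower [66.7 to 316] in the proximal E16.5 than in the E11.5 library, and only its ratio of E12.5 over E11.5 (0.816 [0.661 to 1.01]) lay within counting error. *Zic2* held its level for longer, with 4.13, 3.48, 3.72 and 3.38 CPM from E11.5 to E14.5. At E16.5 *Zic2* stood at 0.206 CPM proximally and 2.38 CPM distally. The proximal value was 16.4-fold lower [11.9 to 23.2] than that of E14.5. Earlier libraries came from forelimbs not cut in segments, so stage and segment cannot be told apart in this ratio or in the 134-fold of *Zic5*. *Zic1* never passed 0.839 CPM, and its 11 UMIs or fewer in each library up to E13.5 leave its early order unreadable. At E14.5 it had 83 UMIs, at E16.5 proximally 167 and distally 6.

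**Figure D1:**
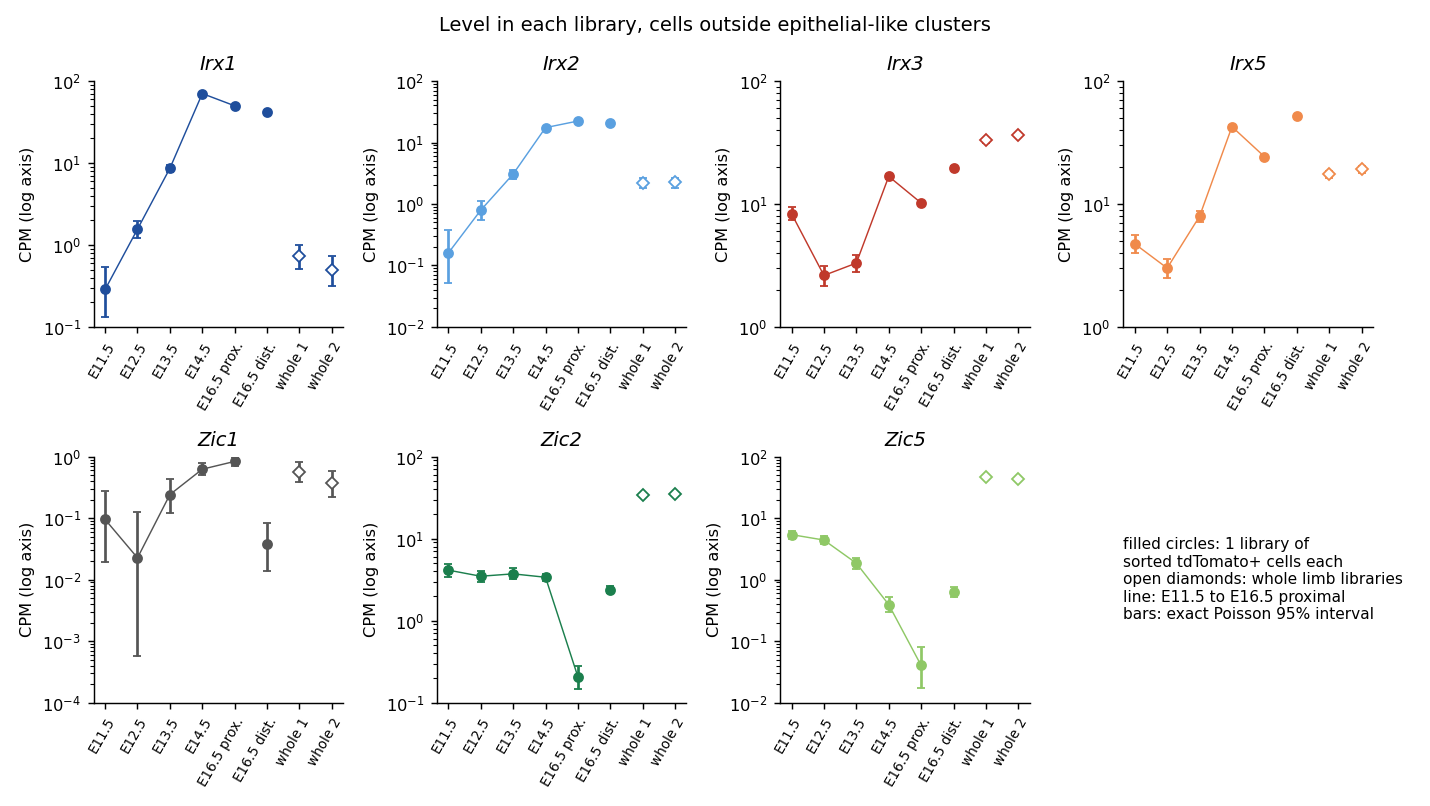
Level of each gene in CPM (log axis) in the 8 libraries, over cells outside epithelial-like clusters, with bars for the 95% counting interval. *Irx1* and *Irx2* lie below 1 CPM among sorted cells of E11.5 and reach 17.5 CPM or more by E14.5, *Zic5* goes from 5.41 to below 1 CPM, and the 2 whole limb libraries sit above the sorted E11.5 library for all of *Irx2*, *Irx3*, *Irx5*, *Zic2* and *Zic5*.

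From E13.5 on, the highest Iroquois levels of any named class outside the epithelium were in dermal fibroblast-like cells, the mesenchyme of the forming skin, named here from genes such as *Col7a1*, *Rspo1*, *Lef1* and *Twist2*. These clusters held 432 cells at E13.5, 912 at E14.5, 1159 in the proximal and 1831 in the distal library of E16.5. *Irx1* stood at 63.2 CPM in them against 3.49 in all other non-epithelial cells at E13.5, a ratio of 18.1 [14.7 to 22.4]. At E14.5 the *Irx1* levels were 330.1 and 36.7 CPM, in the proximal E16.5 library 307 and 22.3, and in the distal one 134 and 19.3. The ratio was thus 9.0 [8.64 to 9.37], 13.8 [13.2 to 14.3] and 6.93 [6.59 to 7.29] in those 3 libraries. At E16.5 the other cells included the mitotic-like cluster 15, described below, with more *Irx1* than the dermal class, at 368 CPM proximally and 195 distally. It held 2667 of the 4015 *Irx1* UMIs of the other cells proximally and 1333 of 2441 distally, so these ratios also depend on how clusters were named. *Irx2* levels were 25.2 against 0.988 CPM at E13.5, 79.0 against 9.48 at E14.5, and 137.6 against 10.0 proximally and 66.9 against 10.0 distally at E16.5.

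*Irx3* and *Irx5* were the most sharply divided at E13.5. Dermal cells were then 7.06% of the cells and held 83.3% of the *Irx3* UMIs [76.4 to 88.9] and 81.7% of those of *Irx5* [77.3 to 85.5]. The levels were 32.1 against 0.602 CPM for *Irx3* and 75.5 against 1.59 CPM for *Irx5*, ratios of 53.3 [34.5 to 85.5] and 47.5 [36.3 to 63.0]. By E14.5 the dermal share had come down to 52.0% of *Irx3* and 45.5% of *Irx5* UMIs, and the other cells had 8.84 and 25.2 CPM of them. Those other cells include an unnamed cluster of dividing cells, described below, with 119 and 219.8 CPM. The share thus also depends on which clusters were named. The ratios in the 3 later libraries were 8.82, 12.2 and 5.65 for *Irx3* and 6.98, 12.3 and 4.67 for *Irx5*. All 4 Iroquois genes were over 2-fold higher in dermal cells in each of the 4 libraries, where 4.72% of all genes with 20 or more UMIs were at E13.5, 5.59% at E14.5, and 5.57% and 5.72% proximally and distally at E16.5. The size moved with the way cells were called: log2 ratios of the 4 genes at E13.5 were 3.05 to 4.23 with cells called by 3 or more dermal markers, against 4.18 to 5.74, and at E14.5 they were 3.47 to 5.02 with all sorted libraries clustered together, against 2.80 to 3.17.

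Detection was compared after each cell had been thinned to 3000 UMIs. *Irx1* was then detected in 9.95% of dermal cells at E13.5, 51.0% at E14.5, 57.7% proximally and 30.2% distally at E16.5. All other non-epithelial cells had *Irx1* in 0.949% at E13.5, 5.19% at E14.5, 3.51% proximally and 3.60% distally at E16.5. Chondrocyte-like cells, a part of these, had *Irx1* in 0% at E13.5, 0.514% at E14.5 and 1.33% proximally at E16.5. The level that free RNA could give was not measured. The dermal and chondrocyte-like medians before thinning were 8431.5 and 5886.5 UMIs at E13.5, 15540 and 13375 at E14.5, and 15029 and 17299 proximally at E16.5. *Irx5* was detected in 15.5%, 41.3%, 34.1% and 32.3% of dermal cells, against 0.334%, 4.97%, 2.165% and 6.63% of all other non-epithelial cells. In chondrocyte-like cells of the first 3 libraries it was detected in 0%, 1.03% and 0.285%.

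*Zic2* and *Zic5* were not enriched in the dermal clusters. No *Zic2* UMI of 169 and no *Zic5* UMI of 84 fell in dermal cells at E13.5, and *Zic2* stood at 0.418 and 0.258 of the level of other cells at E14.5 and in the distal E16.5 library. Where cells of E13.5 were called by 3 or more dermal markers in place of clusters, the direction of *Zic5* turned (log2 ratio 0.56) and *Zic2* had a log2 ratio of −0.14. *Zic1* was the exception, with a ratio of 4.15 [2.55 to 6.63] at E14.5 from 29 and 54 UMIs, and of 4.98 [3.55 to 6.90] proximally at E16.5 from 58 and 109 UMIs. In the distal library *Zic1* had 0 UMIs in dermal cells and 6 in the others.

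**Figure D2:**
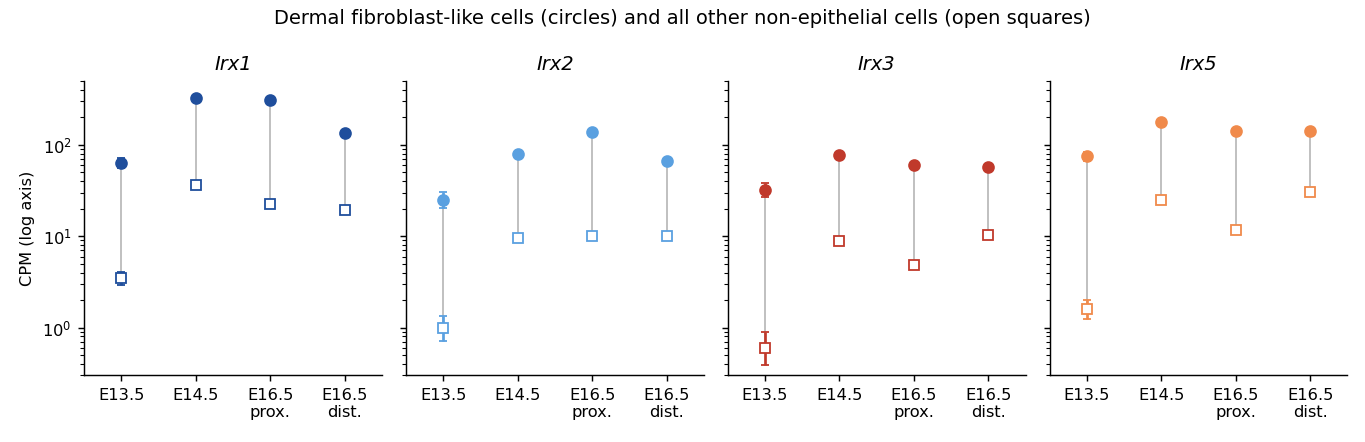
CPM (log axis) of the 4 Iroquois genes in dermal fibroblast-like cells and in the other non-epithelial cells of the same library from E13.5 to E16.5, with bars for the 95% counting interval. The dermal points lie above the others in every pair, by 53.3-fold for *Irx3* at E13.5 and by 4.67-fold for *Irx5* in the distal E16.5 library.

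Within the dermal cells of E16.5, *Irx1* and *Irx2* differed between clusters more than *Irx3* and *Irx5* did. Cluster 2, present in both segments, was higher for genes of the papillary (upper) dermis: *Foxd1*, a forkhead factor, stood at 86.4 CPM in it against 7.83 in cluster 17 of the proximal library. Clusters 17 (proximal) and 9 (distal) were higher for *Dlk1*, a gene of the deep dermis, at 3012 CPM against 545 in cluster 2 proximally and at 1776 against 299 distally. *Cdh11* of the same deep dermis list went the other way, at 253.5 against 390.4 CPM proximally and 543.2 against 721.3 distally. *Irx1* stood at 372 CPM in cluster 2 against 216 in cluster 17, and at 192 against 87.7 in cluster 9. *Irx2* stood at 167.6 against 94.5 CPM proximally and 101 against 39.8 distally. *Irx5* was nearly level, with 146.9 against 137.6 CPM proximally and 144.9 against 140.1 distally. *Irx3* lay between, at 65.8 against 51.4 CPM and 75.8 against 44.3.

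Dividing cells ranged widely. At E14.5 a cluster of 223 cells led by *Nrgn*, *Sp5*, *Lix1* and the Wnt agonist gene *Rspo1*, with 7 raised mitotic markers, had 551 CPM of *Irx1*, 142.0 of *Irx2*, 119 of *Irx3* and 219.8 of *Irx5*. This cluster was not named. It also had 5.09 CPM of *Zic1*, against 0.627 over the library. At E16.5 the mitotic-like cluster 15 had *Irx1* at 368 CPM proximally and 195 distally, and *Irx5* at 166 and 168. The other clusters of dividing cells were much lower, with *Irx1* at 9.69 and 16.9 CPM in the proximal and distal cells of cluster 3 of E16.5, at 22.5 in cluster 1 of E14.5, and at 4.11 and 2.12 in clusters 0 and 12 of E13.5.

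Cells with epithelial markers also carried Iroquois RNA, and were kept apart from the sums above. In the proximal E16.5 library 942 such cells, 8.48% of the total, held 43.6% of the *Irx2*, 43.4% of the *Irx3*, 32.7% of the *Irx5* and 5.25% of the *Irx1* UMIs, and no *Zic2* or *Zic5* UMI. A cluster of 325 cells led by the basal keratins *Krt14* and *Krt5* had *Irx2* at 216 CPM, *Irx5* at 146.9, *Irx1* at 53.0 and *Irx3* at 43.2, and also *Irx4* at 71.5. The other 617 cells had *Irx2* at 60.6, *Irx3* at 43.3, *Irx5* at 41.6 and *Irx1* at only 4.34 CPM. Over the other cells of every library *Irx4* lay at or below 0.14 CPM. These cells were deep, with a median of 37428 UMIs against 17912 in the others, and had *tdTomato* at 954 CPM against 1410. The part of doublets and free RNA in that reporter level was not tested.

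Outside the dermis and epithelium, some clusters held *Irx1* and *Irx2* with little *Irx3* and *Irx5*. Others were high in *Irx5* with little *Irx1* and *Irx2*, and others held all 4 genes. Those with all 4 included the distal mesenchyme-like cluster of E14.5 (66.0, 15.8, 20.4 and 42.8 CPM of *Irx1*, *Irx2*, *Irx3* and *Irx5*) and the fibroblast-like cluster 10 of the distal E16.5 library (23.0, 7.89, 29.4 and 50.2 CPM). Clusters of the other kinds are described next and were chosen for their contrast after their values were seen. At E13.5 a cluster of 74 cells led by *Cyp26a1*, *Msx1* and *Hoxd13*, genes of the distal limb, had *Irx1* at 108 CPM and *Irx2* at 30.6, with no *Irx3* UMI and 2.04 CPM of *Irx5*. At E14.5 the joint-like cluster of 134 cells, named from *Gdf5*, *Erg* and *Wnt4*, had *Irx1* at 64.8 CPM and *Irx2* at 13.1, again with no *Irx3* UMI and with 4.83 CPM of *Irx5*. In the distal E16.5 library a cluster of 713 cells led by *Sema3e*, *Cytl1* and *Erg* had 41.6 and 31.1 CPM of *Irx1* and *Irx2*, against 2.74 and 4.06 of *Irx3* and *Irx5*. Other clusters were high in *Irx5* with little *Irx1* and *Irx2*. Their *Irx3* was not raised, lying below its 16.8 CPM over the E14.5 library and 19.5 CPM over the distal E16.5 library. At E14.5 a cluster of 692 cells led by *Ephb1*, *Nkain3* and *Hoxd13* had *Irx5* at 81.1 CPM and *Irx3* at 9.06, with 2.05 of *Irx1* and 0.755 of *Irx2*. In the distal E16.5 library 1796 cells led by *Ephb1* and *Nkain3* had 49.3 and 11.1 CPM of *Irx5* and *Irx3*, with 1.31 and 0.809 of *Irx1* and *Irx2*.

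**Figure D3:**
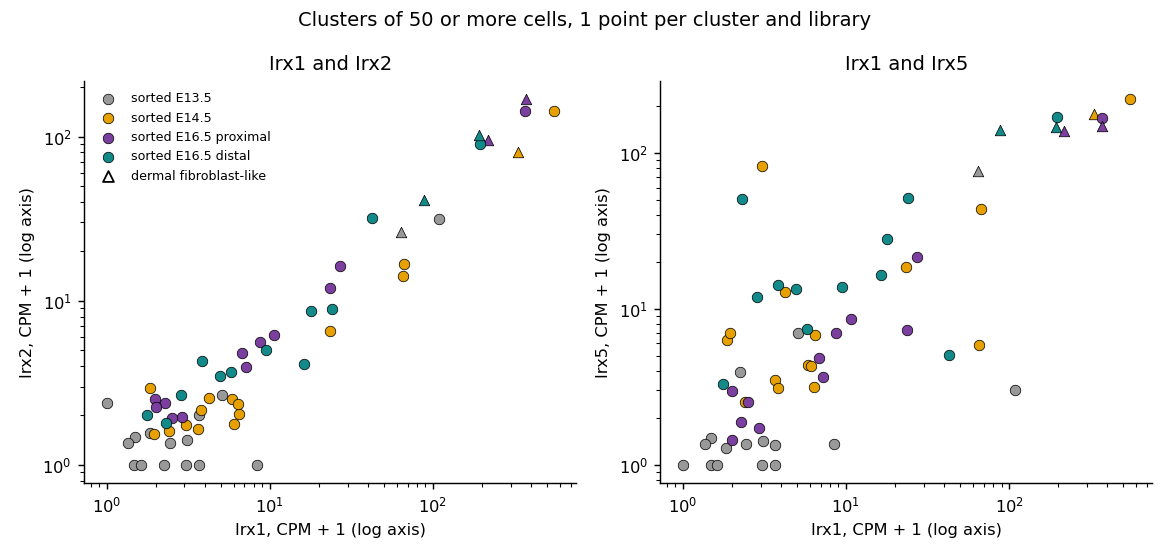
*Irx1* against *Irx2* (left) and against *Irx5* (right), in CPM + 1 on log axes, with 1 point for each cluster of 50 or more non-epithelial cells in the sorted libraries from E13.5 on, coloured by library, and triangles for dermal fibroblast-like clusters. The triangles lie high on all axes, while the right panel also holds clusters high in *Irx1* alone (64.8 against 4.83 CPM in the joint-like cluster of E14.5) and in *Irx5* alone (2.05 against 81.1 CPM in the *Ephb1* cluster of that stage).

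From cell to cell the counts were small. Among 734 distal mesenchyme-like cells of E14.5 thinned to 3000 UMIs, 18 had both *Irx1* and *Irx2*, against 5.35 from the single shares multiplied, a ratio of 3.37 [2.00 to 5.32]. *Irx3* and *Irx5* were found together in 14 cells against 2.02, a ratio of 6.92 [3.78 to 11.6]. Across the pairs the ratio fell below 1: *Irx1* and *Irx5* met in 2 cells against 8.17, a ratio of 0.245 [0.0297 to 0.885], and *Irx1* and *Irx3* in none against 4.01. The values for *Irx1* rested on few cells: thinned to 2000 UMIs, *Irx1* and *Irx3* met in 3 cells against 2.49 (1.21 [0.249 to 3.53]) and *Irx1* and *Irx2* in 3 against 1.99 (1.51 [0.311 to 4.41]), while *Irx3* with *Irx5* kept 6.12 [2.93 to 11.2]. In dermal cells of E14.5 no Iroquois pair lay below 1 at 3000 UMIs. At E14.5 their ratios were 1.56 for *Irx1* with *Irx2*, 1.20 for *Irx3* with *Irx5*, 1.19 for *Irx1* with *Irx3* and 1.10 for *Irx1* with *Irx5*. These ratios also move with cell depth and with the mixture of cells in a class, so they describe co-detection and carry no test.

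At E16.5 the 2 segments differed most in the Zic genes, and in opposite directions. *Zic2* was 11.6-fold higher distally [8.37 to 16.4] (374 against 41 UMIs) and *Zic5* 15.7-fold higher [7.66 to 37.4] (99 against 8 UMIs). *Zic1* was 22.0-fold higher proximally [9.87 to 60.7], with 167 UMIs against 6. *Irx5* was 2.15-fold higher distally [2.07 to 2.23] and *Irx3* 1.92-fold [1.81 to 2.03], while *Irx1* and *Irx2* had ratios of 0.837 [0.811 to 0.864] and 0.945 [0.903 to 0.989]. Of the 7 genes, 4 differed by over 2-fold, against 16.7% of 17846 genes with 20 or more UMIs. With cells thinned to 3000 UMIs 2 did, and with equal weight to each named class 3 did, *Irx5* then having a log2 ratio of 0.32 in place of 1.10, and *Irx1* and *Irx2* −0.86 and −0.81. When thinned, *Zic5* kept no proximal UMI. Its value of 2.15, with 3 UMIs set in place of 0, is then a lower bound beside the 3.97. *Zic2* had 2.24 with equal weights in place of 3.53. Dermal cells made up 10.4% of the proximal and 21.7% of the distal cells, so these sums also move with the make-up of the libraries. The proximal counts were made with Cell Ranger 3.0.2 and the distal ones with 6.0.1, so segment and version cannot be told apart.

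Within dermal cells the Iroquois ratios changed. *Irx1* was then lower distally, at 134 CPM against 307, a ratio of 0.436 [0.419 to 0.454]. *Irx2* was lower likewise, at 66.9 against 137.6 CPM, a ratio of 0.486 [0.459 to 0.515]. *Irx3* and *Irx5* had ratios of 0.968 [0.898 to 1.04] and 0.995 [0.948 to 1.04], with intervals that span 1. The dermal class rested on clusters 2 and 17 proximally (797 and 350 cells) and on clusters 2 and 9 distally (851 and 960 cells). Within cluster 2 alone *Irx1* and *Irx2* were also lower distally, with 0.517 [0.492 to 0.543] and 0.602, and the ratio was 1.15 [1.05 to 1.27] for *Irx3* and 0.987 [0.924 to 1.05] for *Irx5*. *Zic1* had 58 UMIs in proximal and none in distal dermal cells.

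Fibroblast-like and mitotic-like cells were each made up of 2 clusters with different ratios, while pericyte-like and tenocyte-like cells were each a single cluster. Fibroblast-like cells, named from genes such as *Pi16* and *Mfap5*, came from cluster 6 (603 proximal and 588 distal cells) and from cluster 10 (810 and 64). Over the class *Irx1* and *Irx2* had ratios of 0.388 and 0.308. Within cluster 6, however, *Irx1* was 4.85-fold higher distally [2.53 to 10.2] and *Irx2* had 1.74 [0.951 to 3.32], and within cluster 10 they had 0.880 [0.595 to 1.26] and 0.513 [0.253 to 0.932]. *Irx5* had 0.809 over the class, but 14.2 [5.86 to 44.9] and 2.45 [1.87 to 3.17] within clusters 6 and 10, so the class values of *Irx1* and *Irx5* do not give the direction within each of its clusters. *Irx3* was higher distally at each level, with 1.84 over the class and 32.6 [8.72 to 274] and 4.26 [2.92 to 6.09] within the clusters. The 32.6 rests on 77 distal against 2 proximal UMIs.

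Mitotic-like cells came from cluster 3 (1060 proximal and 465 distal cells) and cluster 15 (311 and 287). *Irx1* was level over the class (0.965 [0.907 to 1.03]), with 1.75 [1.46 to 2.10] in cluster 3 and 0.530 [0.495 to 0.566] in cluster 15. *Irx5* had 1.94 [1.80 to 2.09] over the class, 3.6 [3.03 to 4.28] in cluster 3 and 1.02 [0.936 to 1.10] in cluster 15. The clusters of dividing cells thus differed from each other in these ratios. In pericyte-like cells, the contractile cells around small vessels, *Irx5* was 2.44-fold higher distally [1.73 to 3.45]. In tenocyte-like cells it was 3.25-fold higher [2.28 to 4.71].

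*Zic2* had 22 distal and 2 proximal UMIs in dermal cells, a ratio of 6.90 [1.70 to 60.5], of which 6 and 1 lay in cluster 2 (5.09 [0.618 to 234]). It was higher distally in fibroblast-like (21.2-fold [9.19 to 59.99]) and mitotic-like cells (7.34-fold [3.13 to 19.9]), and by 10.3-fold [4.19 to 32.9] within the fibroblast-like cluster 6. *Zic1* was higher proximally in the dermal cluster 2 (42 UMIs against 0) and the mitotic-like cluster 15 (41 against 1). In fibroblast-like cells its 41 proximal UMIs against 1 lay mostly in cluster 10, where 38 against 0 gave an interval reaching 1.40, so no difference within that cluster was detectable at this depth.

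**Figure D4:**
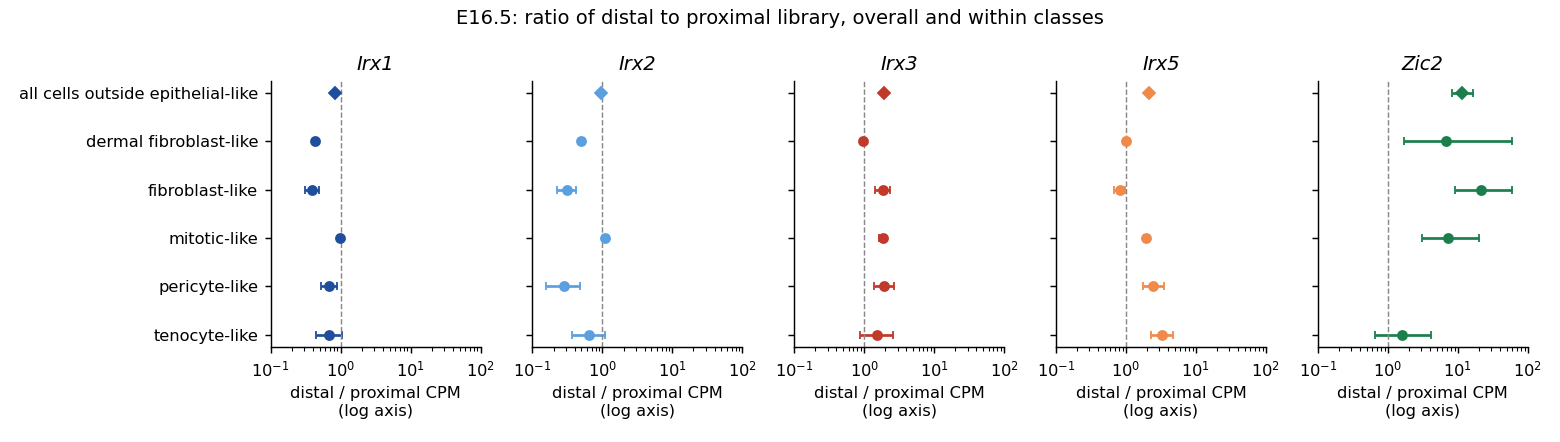
Ratio of distal over proximal CPM at E16.5 (log axis, a line at 1) for the 4 Iroquois genes and *Zic2*, in all non-epithelial cells and within named classes, with 95% counting intervals. Points under 20 UMIs are not drawn. *Irx1* and *Irx2* lie below 1 in dermal cells (0.436 and 0.486) while *Irx3* and *Irx5* lie at 1 there. *Zic2* lies above 1 wherever drawn, with an interval that spans 1 in tenocyte-like cells (0.650 to 4.09). Its point for pericyte-like cells (3 distal and 4 proximal UMIs) is left out.

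*Zic2* and *Zic5* were highest in the same clusters in each of the libraries from E12.5 to E14.5, and in the distal one of E16.5. At E12.5 a cluster of 454 cells led by *Igfbp7*, *Hhex* and *Gdf6* had *Zic2* at 14.5 CPM and *Zic5* at 15.3. At E13.5 a cluster of 385 cells led by *Sall3* had 16.5 and 7.82 CPM, and a cluster of 383 cells led by *Hoxd13*, *Stmn2* and *Islr2* had 17.9 and 9.57. At E14.5 the 299 cells led by *Hhex* and *Lhx8* had *Zic2* at 28.7 and *Zic5* at 4.58 CPM, and 439 cells led by *Stmn2*, *Islr2* and *Sall1* had 24.4 and 3.0. In the distal library of E16.5 the 836 cells led by *Fhod3* and *Sfrp4* kept 9.88 and 2.44 CPM. None of these clusters could be named from the fixed markers.

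The whole forelimbs of E11.5 allowed the genes to be placed along the limb axes in each of 2 libraries. Cells with a UMI of anterior markers such as *Pax1*, *Pax9* and *Alx4* and of no posterior marker numbered 454 in whole 1 and 510 in whole 2. Cells with a UMI of *Hand2*, *Tbx2*, *Hoxd12* or *Shh* and of no anterior marker numbered 1634 and 1638. *Irx3* stood at 117 CPM in anterior and 9.67 in posterior cells of whole 1, and at 114 and 7.84 in whole 2, ratios of 12.2 [10.1 to 14.7] and 14.6 [11.9 to 18.0]. *Irx5* stood at 61.0 against 5.66 CPM and at 56.3 against 4.52, ratios of 10.8 [8.44 to 13.9] and 12.5 [9.50 to 16.5]. *Zic2* and *Zic5* were level along this axis when 1 marker UMI was asked for: their ratios were 0.919 [0.761 to 1.10] and 1.01 [0.851 to 1.19] in whole 1, and 1.12 [0.943 to 1.33] and 1.14 [0.971 to 1.33] in whole 2. With 2 or more marker UMIs they were lower in anterior cells, with log2 ratios of −1.42 and −0.83 in whole 1 and −0.99 and −1.25 in whole 2, while those of *Irx3* and *Irx5* were between 4.93 and 5.96. In each library 2 of the 7 genes differed by over 2-fold, where 5.87% of all genes with 20 or more UMIs did in whole 1 and 5.1% in whole 2.

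Along the other axis *Irx3* and *Irx5* were opposed to *Zic2* and *Zic5*. Distal cells were taken from *Hoxa13* and *Hoxd13*, and proximal cells from *Meis1* and *Meis2*, TALE homeobox genes themselves. *Irx3* was 51.2-fold higher [35.2 to 77.4] in proximal than in distal cells of whole 1 and 28.5-fold higher [20.9 to 39.9] in whole 2. *Irx5* was 51.2-fold [30.8 to 92.1] and 38.2-fold [23.7 to 66.0] higher proximally. *Zic2* was 3.96-fold [3.20 to 4.93] and 3.41-fold [2.79 to 4.18] higher distally, and *Zic5* 3.0-fold [2.52 to 3.58] and 3.12-fold [2.61 to 3.75]. *Irx2*, unlike *Irx3* and *Irx5*, was higher distally, by 2.01-fold [1.11 to 3.84] and 2.71-fold [1.33 to 5.97]. *Irx1* was so too on few counts, with 15 UMIs distally against 2 in whole 1 and 7 against 1 in whole 2. Across all genes with 20 or more UMIs, 11.7% in whole 1 and 11.1% in whole 2 differed by over 2-fold.

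Both axes combined placed *Irx3* and *Irx5* in the anterior proximal mesenchyme. In anterior proximal cells (194 in whole 1 and 218 in whole 2) *Irx3* stood at 233.7 and 178 CPM and *Irx5* at 121.6 and 90.0. In posterior proximal cells the levels were 51.1 and 31.2 CPM for *Irx3* and 32.8 and 21.3 for *Irx5*. In posterior distal cells (598 and 554) they were 0.931 and 2.62 CPM for *Irx3* and 0.621 and 0.873 for *Irx5*. Posterior proximal cells numbered only 244 and 271, so the anterior over posterior ratios above also carry the distal to proximal difference. *Zic2* went from 14.5 and 12.4 CPM in posterior proximal to 42.2 and 36.8 in posterior distal cells, and *Zic5* from 12.9 in each to 48.4 and 42.1. Anterior distal cells were few: the 25 of whole 2 had *Zic5* at 104.5 CPM [68.9 to 152], *Zic2* at 38.7 and *Irx3* at 19.4. From cell to cell, *Irx3* and *Irx5* were found together 6.72 times [5.59 to 8.02] as often as their shares multiplied in whole 1 and 6.2 times [5.16 to 7.39] in whole 2. For *Zic2* with *Zic5* the ratios were 2.22 and 2.20. Each pair of *Irx3* or *Irx5* with *Zic2* or *Zic5* lay below 1, for example *Irx3* with *Zic2* at 0.204 [0.0820 to 0.420] and 0.303.

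**Figure D5:**
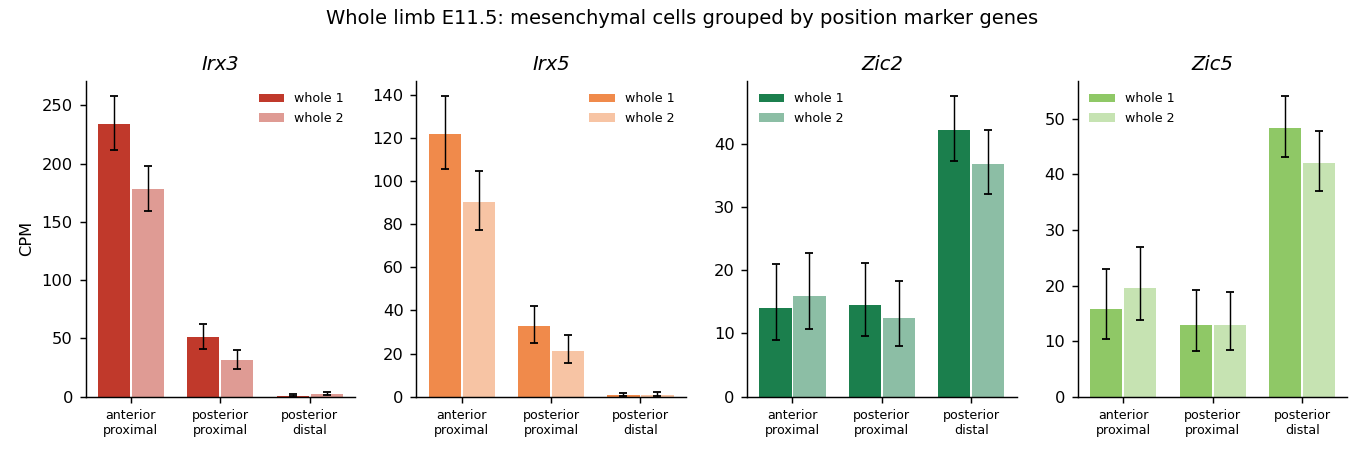
CPM (linear axis) of *Irx3*, *Irx5*, *Zic2* and *Zic5* in anterior proximal, posterior proximal and posterior distal mesenchymal cells of whole 1 and whole 2, with 95% counting intervals and without the few anterior distal cells. *Irx3* and *Irx5* step down from 178 CPM or more and 90.0 CPM or more to below 3 CPM, and *Zic2* and *Zic5* step up to between 36.8 and 48.4 CPM.

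Against these whole limbs, the sorted tdTomato+ mesenchyme of E11.5 was lower for 5 of the 6 members that could be tested. *Irx3* stood at 8.37 CPM in the sorted library and at 34.7 and 37.9 CPM in whole 1 and whole 2, a log2 fold change of −2.30 (SE 0.15, adjusted p = 5.5e-52 by edgeR's quasi-likelihood test with Benjamini-Hochberg adjustment over 15023 genes). *Irx5* stood at 4.73 against 18.5 and 20.1 CPM (log2 fold change −2.21, SE 0.17, adjusted p = 2.3e-38). *Zic2* stood at 4.15 against 36.7 and 37.1 CPM (−3.33, SE 0.16, adjusted p = 6.9e-89) and *Zic5* at 5.40 against 49.8 and 46.9 (−3.34, SE 0.15, adjusted p = 8.5e-104). *Irx2* had the largest fitted difference of the members, at 0.160 against 2.15 and 2.25 CPM (−3.94, SE 0.46, adjusted p = 2.3e-16), from 5 sorted UMIs. The sorted library lay outside the whole limb libraries for all 5. *Irx1*, at 0.288 against 0.752 and 0.424 CPM, missed the threshold (−1.20, SE 0.54, adjusted p = 0.0501 by edgeR), and *Zic1*, with 3 UMIs against 1 and 4, was under the filter on low counts. Thinned to 3000 UMIs per cell, the difference was larger for *Irx3* (log2 fold change −3.14) and *Irx5* (−2.81). Without the filter on low counts the adjusted p of the 5 genes by edgeR lay between 0.021 and 0.025. The test called 53.5% of all genes in either direction and 26.6% lower in the sorted library, with a median log2 fold change of 0.014, and its single sorted library was taken to vary like the whole limb ones.

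The sorted cells also differed from the whole limbs in make-up, and the part of this in the lower levels was not tested. With the same markers, 38 of 3155 sorted cells were distal and 493 proximal, against 1076 and 1154 of 5076 in whole 1. Within proximal cells *Irx3* stood at 19.1 CPM in the sorted library against 122.5 and 110.3 in whole 1 and whole 2, and *Zic2* at 0.899 against 11.3 and 12.5 CPM. Within distal cells *Zic2* stood at 16.4 against 44.8 and 42.5 CPM. The sorted distal value rests on 8 UMIs. The order along the axes was also that of the whole limbs: anterior over posterior was 5.65 [3.54 to 9.13] for *Irx3* and 11.3 [5.38 to 25.9] for *Irx5*, and distal over proximal was 18.2 [5.26 to 70.8] for *Zic2* and 21.2 [7.85 to 62.6] for *Zic5*.

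Relatives of the members moved less uniformly in that test. Of 14 further TALE homeobox genes, 12 were tested and 3 were higher and 6 lower in the sorted library, with a list median of −0.20, where 26.8% of all genes were higher and 26.6% lower. *Mkx*, a tendon factor gene, had the largest rise (2.06), *Meis3* rose by 0.93 and *Pknox2* fell by 0.62 on the log2 scale by edgeR. By DESeq2 neither passed the threshold (adjusted p = 0.097 and 0.29). Of 8 further GLI-type zinc finger genes, 7 were tested, 1 was higher and 3 were lower, with a median of 0.11. *Glis1* fell by 0.96 and *Gli3*, which encodes a Hedgehog pathway repressor, by 0.68. *Irx6*, the third gene of the *Irx3* cluster, never passed 0.597 CPM over the non-epithelial cells of a library, and *Zic4* stayed at or below 0.0954. In dermal cells *Irx6* stood at 1.54 CPM at E13.5 and 1.38 at E14.5, and *Zic4* at 0.312 proximally at E16.5, from 21 UMIs or fewer.

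Of all genes outside the families, *Crnde* had the pattern most like *Irx3* and *Irx5*. Over 85 groups of a library and a class with 100 or more cells, its Spearman correlation was 0.87 with *Irx3* and 0.88 with *Irx5*, among 9905 genes considered. The groups share libraries and depth, so the values are descriptive and have no p. *Crnde* had dermal over other ratios of 19.4 [10.4 to 37.4], 6.98 [6.08 to 8.02], 9.76 [8.54 to 11.2] and 4.04 [3.53 to 4.64] from E13.5 to the distal E16.5 library. At E11.5 it was anterior, by 11.1 [6.47 to 19.8] and 8.68 [4.96 to 15.9] in whole 1 and whole 2. The next genes were *Hist1h1b* for *Irx3* (0.71) and *Rspo1* for *Irx5* (0.68), the latter a naming marker of dermal cells.

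Other members were matched less closely, apart from *Zic5*. *Thy1*, a surface protein of fibroblasts, was nearest to *Irx1* (0.79), and *Setd8* to *Irx2* (0.70). *Sall3*, a zinc finger gene of the distal limb, was nearest to *Zic5* (0.86) and stood at 0.74 with *Zic2*, where *Asxl1* was nearest (0.75). The nearest gene to *Zic1*, *Mrpl33*, reached only 0.54. Between members the correlation was 0.87 for *Irx3* with *Irx5*, 0.82 for *Zic2* with *Zic5*, and 0.60 for *Irx1* with *Irx2*. It was −0.60 for *Irx1* with *Zic5* and −0.41 for *Irx1* with *Zic2*, while *Irx1* with *Irx3* had 0.14.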

How the data were processed

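UMI counts per gene and cell were measured in 8 droplet libraries of mouse forelimb cells. The authors made the deposited count matrices with Cell Ranger from reads aligned to mm10 with 3 added sequences, version 3.0.2 per the file headers of 5 sorted libraries and 6.0.1 for the distal E16.5 library, and called the cells. The counts are raw and were not normalised. Libraries held between 32957305 and 236408650 UMIs.

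Cells with 3000 or more UMIs and at most 10% mitochondrial UMIs were kept. Cells of each stage were clustered with scanpy 1.11.5 (2000 variable genes without the members, 50 components, 25 neighbours, Leiden resolution 1), and a cluster was named where 3 or more of a class's markers were raised by a log2 fold of 1 or more in at least 10% of its cells and its 10 leading genes did not go against the name. Of 114 listed markers, 113 were found. Further, 2 clusters led by platelet or keratin genes were kept out of mesenchymal or non-epithelial sums by a rule added after the clusters were seen. No doublet caller was run. UMIs were summed per library and class and given as CPM. Ratios have exact binomial intervals, and single levels exact Poisson intervals, at 95%, which cover counting error only. No fold was given against 0 UMIs, except as a bound in thinned counts, where 3 UMIs were set in place of 0.

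Sorted and whole mesenchymal sums of E11.5 were compared with edgeR 4.0.16 (quasi-likelihood test, TMM, Benjamini-Hochberg at 0.05 over all genes tested), with DESeq2 1.42.0 and limma 3.58.1 voom as alternatives, the single sorted library being taken to vary like the whole limb ones. Whole 1 and whole 2 are labelled as replicates, so p-values measure the spread between these libraries, which may be technical. On simulated counts for this comparison (14786 genes, 200 changed 4-fold) edgeR recovered 91.5% of the changed genes with 8 false calls. The simulated sorted library was given the same spread as the whole limb ones, and far fewer genes were changed than the real test called. It therefore cannot show how many of the real calls are false. Shares of cells and co-detection used cells thinned to 3000 UMIs. All other comparisons have 1 library a group and no test. All 7 members were described in every library, relatives and family lists were fixed by name, and for each member the 3 genes of highest Spearman correlation of log2(CPM + 1) over groups of 100 or more cells were taken, among genes reaching 20 CPM. The members and lists were chosen with earlier results of these data known. Some listed genes are not reported here.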

Additional observations from a re-analysis of the deposited data

Results flagged for a closer look

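*Irx2* and *Irx5* were singled out because their distal over proximal ratios at E16.5 pointed in opposite directions in different cell classes, each with a counting interval that left out 1. For *Irx2* the ratio was 0.4862 in dermal fibroblast-like, 0.3083 in fibroblast-like and 0.2846 in pericyte-like cells, and 1.102 [1.003 to 1.21] in mitotic-like cells. For *Irx5* it was 0.8085 [0.667 to 0.976] in fibroblast-like cells, and 1.94 in mitotic-like, 2.439 in pericyte-like and 3.253 in tenocyte-like cells. The pericyte-like and tenocyte-like classes were each a single cluster. Fibroblast-like cells came from cluster 6 (603 proximal and 588 distal cells) and cluster 10 (810 and 64), within which *Irx5* was higher distally, at 14.2 [5.86 to 44.9] and 2.45 [1.87 to 3.17], and *Irx2* had 1.74 and 0.513. With 1 library for each segment, the differences between classes were not tested. Mitotic-like cells came from cluster 3 (1060 proximal and 465 distal cells) and cluster 15 (311 and 287), with ratios of 1.47 for *Irx2* and 3.6 for *Irx5* in cluster 3, and of 0.628 and 1.02 in cluster 15.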

How the results depend on the processing

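In all, 40 counts were recomputed, either of members or of member pairs with a co-detection ratio and interval above 1. Of these, 39 stayed within 1.5 times of the original count. The exception was the number of members over 2-fold apart between the E16.5 segments, 4 as reported and 2 with every cell thinned to 3000 UMIs (*Irx5* and *Zic2*), where *Zic1* and *Zic5* fell under the minimum of 20 UMIs. That number was 3 over all filtered cells, over all barcodes and with equal weight to each class, since *Irx5* then had a log2 ratio of 0.78, 0.78 and 0.32. Of 272 recomputed values of single genes, 181 were counted as unchanged, 88 as moved, 2 passed the threshold anew and 1 reversed. Unchanged meant inside the counting interval for ratios, and the same direction and threshold call for the E11.5 test. Values without 1 whole limb library were set against the spread of the whole limb libraries. The reversed value was the dermal over other ratio of *Zic5* at E13.5. Its log2 value was 0.5574 when cells were called by 3 or more dermal markers in place of clusters, against 0 dermal UMIs in the clusters. The 2 that passed were *Irx1* at E11.5, with a log2 fold change of −1.22 (adjusted p = 0.048 by edgeR) under median-ratio size factors and −1.29 (adjusted p = 0.042) over all filtered cells. Members past the threshold at E11.5 numbered 5 by edgeR, DESeq2 and voom, 6 under median-ratio factors and 7 over all filtered cells, which include the myogenic-like cells of the whole limbs. All genes called numbered 8035 by edgeR, 4904 by DESeq2, 6968 by voom and 3839 with no filter on low counts. Without either whole limb library in turn the log2 fold change ranged from −1.56 to −0.77 for *Irx1*, −4.03 to −3.92 for *Irx2*, −2.39 to −2.22 for *Irx3*, −2.30 to −2.14 for *Irx5*, −3.37 to −3.32 for *Zic2* and −3.38 to −3.33 for *Zic5*. *Irx3* in proximal E16.5 over E11.5 had log2 ratios of 0.87 over all filtered cells and 1.19 when thinned. With 2 or more marker UMIs, *Zic2* and *Zic5* had anterior over posterior log2 ratios of −1.42 and −0.83 in whole 1 and −0.99 and −1.25 in whole 2. No paired analysis was possible because the sorted group has 1 library, so the groups share fewer than 2 replicate numbers. The cause of these changes was not tested beyond what is stated, and depth limits *Zic1* and, at E16.5, *Zic5*.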

Other observations

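In the sorted library of E11.5, *Irx3* and *Irx5* were highest in a cluster of 255 cells led by *Rarres2*, *Gdnf* and *Ebf2*, at 24.97 and 16.6 CPM. *Zic2* and *Zic5* were near their lowest there, at 0.287 and 0.861 CPM, and stood at 4.80 and 5.76 CPM in the largest sorted cluster of 1706 cells. At E12.5, where no cluster was named dermal fibroblast-like, all 4 Iroquois genes were present in a cluster of 336 cells led by *E330013P04Rik*, *Prox1* and *Cntn1*, with *Irx5* at 16.7, *Irx3* at 8.21, *Irx1* at 6.57 and *Irx2* at 5.48 CPM.

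The few epithelial-like cells of E14.5 already had *Irx2* at 200.7 CPM in a cluster of 39 cells and 255.3 CPM in a cluster of 31 cells, with *Irx4* at 80.8 CPM in the latter. In the whole limbs *Zic1* was found in myogenic-like cells, at 7.16 CPM in whole 1 and 4.31 CPM in whole 2, against 1 and 4 UMIs over the mesenchyme. Among relatives, *Irx6* had 59 UMIs in the distal and 10 in the proximal library of E16.5. *Meis1* and *Meis2* were higher in dermal than in other cells in all 4 libraries that held that class, with ratios of 1.89 to 7.30 for *Meis1* and 1.88 to 4.47 for *Meis2*, while *Mkx* had 0.113 to 0.241.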
